A study of Mus musculus with 8 samples.

Results

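The 8 transcripts described here are cytotoxic T cell genes, Gzma, Gzmb, Ccl5, Cd3e, Cd3g, Cd8a, Cd7 and Nkg7, read out in tuft cells sorted from the mouse small intestine. They are a fixed list of 8 gene symbols of the 53655 in the count table, and all 8 have a row there. Tuft cells came from naïve mice with the genotype Il25-RFP/+;Chat-GFP(Tg+), an Il25 allele that reports in red and a Chat transgene that reports in green, and both groups carry both reporters. Cells of both groups lacked CD45 on their surface and carried EPCAM and red signal, and they were split into a fraction without green signal (Chat-neg, 4 libraries) and one with it (Chat-pos, 4 libraries). The sources used here state neither the age of the mice nor which animal each library came from. The p-values set the group difference against the scatter among libraries. Part of that scatter may be technical, and it may not reflect differences between animals. The Chat transgene marks cells that drive the reporter, and Chat RNA itself was also found in the fraction without green signal.

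Intraepithelial lymphocytes are T cells that live between the cells of the gut lining. Many carry CD8 alpha chains as homodimers, many use gamma-delta T cell receptors, and they are known for storing granzymes and for making the chemokine CCL5. They carry CD45 and lack EPCAM, so the gates of this sort are meant to leave single lymphocytes out. In bulk RNA, fewer cells of a type and less RNA per cell cannot be told apart.

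The regions upstream of 3 cytotoxic effector genes are shown because these genes are the ones whose RefSeq promoter windows hold the core letters bound by RUNX factors, which act in CD8 T cells. Each window runs from 250 bases before to 50 bases after the gene start (RefSeq, GRCm38.p6), read 5′ to 3′ on the gene's strand, with TGTGGT or its reverse complement ACCACA in capitals. The Gzma window is chr13:113100932-113101231 on the minus strand, the Gzmb window chr14:56262285-56262584 on the minus strand, and the Nkg7 window chr7:43436888-43437187 on the plus strand.
Gzma: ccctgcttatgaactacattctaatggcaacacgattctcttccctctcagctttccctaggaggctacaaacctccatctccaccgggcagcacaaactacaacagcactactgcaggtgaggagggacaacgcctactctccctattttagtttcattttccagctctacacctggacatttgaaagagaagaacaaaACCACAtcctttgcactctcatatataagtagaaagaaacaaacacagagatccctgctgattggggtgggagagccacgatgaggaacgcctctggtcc
Gzmb: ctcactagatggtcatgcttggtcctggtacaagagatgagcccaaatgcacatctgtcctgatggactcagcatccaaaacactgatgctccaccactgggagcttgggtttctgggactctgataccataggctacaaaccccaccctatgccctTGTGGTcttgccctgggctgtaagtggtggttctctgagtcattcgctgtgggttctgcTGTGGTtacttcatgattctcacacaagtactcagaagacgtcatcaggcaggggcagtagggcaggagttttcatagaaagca
Nkg7: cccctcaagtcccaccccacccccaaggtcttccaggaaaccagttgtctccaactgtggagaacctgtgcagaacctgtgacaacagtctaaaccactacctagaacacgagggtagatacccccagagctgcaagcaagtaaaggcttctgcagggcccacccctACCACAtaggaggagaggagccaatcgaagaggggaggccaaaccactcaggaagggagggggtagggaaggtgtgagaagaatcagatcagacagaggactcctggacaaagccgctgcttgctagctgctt
The letters begin at position -50 from the RefSeq start in Gzma, at -93 and -34 in Gzmb and at -83 in Nkg7. Gene positions given further below are from GENCODE, whose start differs from the RefSeq start for Gzmb and Nkg7. The whole Gzmb window lies before its GENCODE start. Of the 6 members with a window in the RefSeq table (Ccl5 and Cd7 have none there), 3 hold these letters on either strand, against 16.8% of all 32851 windows of this length. A T-box core, AGGTGT on either strand, is present in 4 of the 6 (Nkg7, Cd3g, Cd3e and Gzma) and in 13.7% of all windows. An ETS core, AGGAAG on either strand, is present in 2 (Nkg7 and Cd3e) and in 35.4% of all windows, and the E-box CAGCTG in 2 (Cd8a and Cd3g) and in 16.3%. These matches describe letters only.

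The libraries held 87642 to 2541955 counts in named genes, and Chat-neg replicate 1 was the shallowest. A count of 0 there allows a level of up to 34.2 CPM (counts per 1000000 over named genes), against 2.55 to 4.91 CPM in the other Chat-neg libraries and 1.18 to 1.71 CPM in Chat-pos. Chat RNA averaged 117 ± 21.3 CPM (SD, n = 4) in the Chat-neg libraries. In the Chat-pos libraries it averaged 310 ± 36.2 CPM (SD, n = 4), and it was called higher there in every fit tried. The 12 tuft cell markers summed to 10100 to 18000 CPM in Chat-neg and 23400 to 24000 CPM in Chat-pos, so the labelled cell type was present in every library. Chat-pos replicates 2 and 3 were rich in Paneth cell transcripts, with 57600 and 32600 CPM over 10 markers against 465 to 3590 CPM in the other 6 libraries.

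Granzymes are serine proteases that lymphocytes deliver into target cells. Gzma (ENSMUSG00000023132.8, chromosome 13 at 113093825 to 113100981, minus strand, GRCm38) stood at 160, 207, 240 and 134 CPM in Chat-neg replicates 1 to 4. In Chat-pos replicates 1, 3 and 4 it stood at 1.14, 5.02 and 3.15 CPM, and in Chat-pos replicate 2 at 187 CPM. All Chat-neg libraries and Chat-pos replicate 2 were high, and the other 3 Chat-pos libraries were low. The Chat-neg mean was 185 ± 47.5 CPM (SD, n = 4), 59.7 times the mean of the 3 low Chat-pos libraries, 3.1 ± 1.94 CPM (SD, n = 3). Gzmb (chromosome 14 at 56258838 to 56262260, minus strand) had 1, 21, 28 and 1 counts in Chat-neg replicates 1 to 4, which is 11.4, 26.8, 23.8 and 1.64 CPM. It had 2, 0 and 0 counts in Chat-pos replicates 1, 3 and 4 and 37 counts (15.5 CPM) in Chat-pos replicate 2. Gzmb was thus well covered in 3 libraries only, Chat-neg replicates 2 and 3 and Chat-pos replicate 2.

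Ccl5, a chemokine that draws in T cells and is stored by memory-type CD8 T cells, lies on the minus strand of chromosome 11 at 83525778 to 83530518. Its level was 79.9, 152, 108 and 36.0 CPM in Chat-neg replicates 1 to 4, from 7, 119, 127 and 22 counts. It was 7.40, 4.57 and 4.72 CPM in Chat-pos replicates 1, 3 and 4 and 138 CPM in Chat-pos replicate 2. The same 3 Chat-pos libraries were low, and Chat-pos replicate 2 lay within the Chat-neg range. Chat-neg averaged 93.9 ± 48.6 CPM (SD, n = 4), 16.9 times the 5.56 ± 1.59 CPM (SD, n = 3) of the low Chat-pos libraries.

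Cd3e and Cd3g encode the epsilon and gamma chains of CD3, the signalling part of every T cell receptor, and both lie on the minus strand of chromosome 9, at 44998740 to 45009627 and 44969572 to 44980431. Cd3g stood at 45.6, 30.6, 35.7 and 14.7 CPM in Chat-neg replicates 1 to 4. It had no count in Chat-pos replicates 1 and 4, 4.11 CPM in Chat-pos replicate 3 and 18.8 CPM in Chat-pos replicate 2. Cd3g therefore shared the split of Gzma and Ccl5, with every Chat-neg library above the 3 low Chat-pos libraries. The order within the groups differed, and the highest Cd3g value, in Chat-neg replicate 1, rests on 4 counts. Cd3e had 1, 0, 3 and 0 counts in Chat-neg and 0, 15, 0 and 0 counts in Chat-pos, so 15 of its 19 counts came from Chat-pos replicate 2. Exons of Cd3e overlap the antisense gene Gm48719, which had no count in any library, and at this depth no difference in Cd3e between the groups was detectable.

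Cd8a, on the plus strand of chromosome 6 at 71373427 to 71379173, encodes the alpha chain of the CD8 coreceptor. It had 0, 12, 17 and 1 counts in Chat-neg replicates 1 to 4, or 0, 15.3, 14.4 and 1.64 CPM, and 20 counts (8.38 CPM) in Chat-pos replicate 2. Chat-pos replicates 1, 3 and 4 had 0 counts in 6489490, which allows up to 0.462 CPM over the 3 together. The pooled Chat-neg level of 11.3 CPM was 24.4 times that limit. It rests mostly on replicates 2 and 3, and the Chat-neg libraries spread widely (7.85 ± 8.15 CPM, SD, n = 4). Chat-neg replicate 1 also had 0 counts, with a limit of 34.2 CPM, and says little about this gene.

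Cd7 encodes a surface receptor of T and NK cells, and Nkg7 a membrane protein of cytotoxic granules. Cd7 (chromosome 11 at 121036747 to 121039418, minus strand) stood at 11.4, 10.2, 16.1 and 4.91 CPM in Chat-neg and at 2.28, 7.12, 0.913 and 0 CPM in Chat-pos replicates 1 to 4. Its exons overlap the antisense gene Gm11775, which had at most 2 counts in a library. Nkg7 (chromosome 7 at 43437073 to 43438249, plus strand) stood at 0, 8.93, 16.1 and 14.7 CPM in Chat-neg and at 0, 20.1, 0 and 2.75 CPM in Chat-pos. Chat-pos replicate 2 had the highest Nkg7 level of the 8 libraries, whereas for the other 7 members its level lay inside the Chat-neg range.

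**Figure D1:**
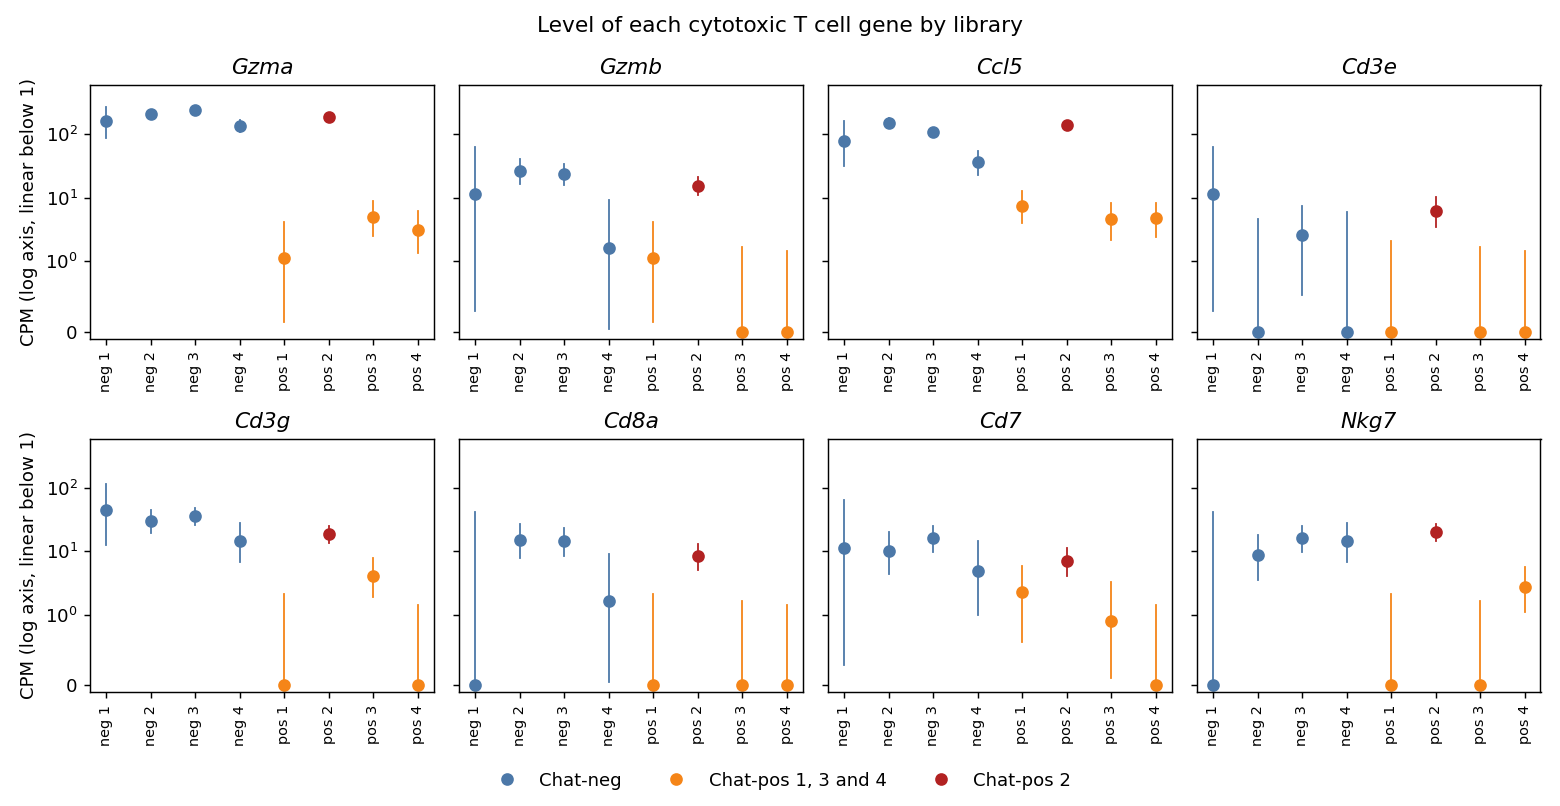
CPM over named genes (vertical, log axis, linear below 1) of each of the 8 genes in each library (horizontal), with exact Poisson 95% intervals of the count as bars. Blue points are Chat-neg, orange points Chat-pos replicates 1, 3 and 4, and the red point Chat-pos replicate 2, which sits beside the Chat-neg points, with Gzma at 187 CPM against 1.14 to 5.02 CPM in the orange points.

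Summed over the 8 genes, the level was 319, 450, 457 and 208 CPM in Chat-neg replicates 1 to 4, from 28, 353, 538 and 127 counts. It was 11.9, 14.6 and 10.6 CPM in Chat-pos replicates 1, 3 and 4, from 21, 32 and 27 counts, and 401 CPM in Chat-pos replicate 2, from 958 counts. The exact Poisson 95% interval of the shallowest library, 212 to 462 CPM, lay above the highest interval of the 3 low Chat-pos libraries, 9.99 to 20.6 CPM. The intervals cover counting error only, and reads that are PCR copies cannot be told apart here. The mean of Chat-neg (359 ± 119 CPM, SD, n = 4) was 28.9 times that of the 3 low Chat-pos libraries (12.4 ± 2.03 CPM, SD, n = 3). With unnamed rows kept in the library totals that ratio was 18.9, from means of 89.5 and 4.75 CPM. Over all 4 Chat-pos libraries the mean was 110 ± 194 CPM (SD, n = 4), a spread larger than the mean.

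A measure of stray reads was taken from 1437 olfactory and vomeronasal receptor genes, which are assumed to be silent here. Vmn2r26 was left out of this set by name. In Chat-neg replicates 1 to 4 the highest count of any of these genes was 5, 14, 8 and 7, and Gzma had 14, 162, 283 and 82 counts. In Chat-pos replicate 2 the highest was 27, against 447 counts of Gzma and 329 of Ccl5. In Chat-pos replicates 1, 3 and 4 the highest was 19, 25 and 18, and 0 of the 8 genes exceeded it. Where a member had a count there, it lay below the highest of these genes but above most of them, since 79.4%, 89.0% and 87.7% of the 1437 were at 0. Cd3e and Cd8a were at 0 in all of these libraries, and Gzmb, Cd3g, Cd7 and Nkg7 in some, like most of the 1437. At or above the Gzma count were 91, 5 and 7 of them in Chat-pos replicates 1, 3 and 4, and at or above the Ccl5 count 2, 5 and 4. By contrast 2, 4, 7 and 4 members exceeded the highest of these genes in Chat-neg replicates 1 to 4 and 5 members in Chat-pos replicate 2.

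Levels were put per kilobase of exon, with all annotated exons of a gene merged, for a rough comparison among genes. Cd3e, Cd8a and Cd3g had merged lengths of 4080, 3637 and 3269 bases, against 914 to 1436 for the other members. Longer lengths give lower values on this scale. Gzma was the most abundant member in Chat-neg at 184 ± 47.2 CPM per kb (SD, n = 4), followed by Ccl5 at 97.8 ± 50.7 CPM per kb. Gzmb (11.1 ± 8.08), Nkg7 (10.9 ± 8.02), Cd3g (9.69 ± 3.95) and Cd7 (9.42 ± 4.07 CPM per kb) came next and did not differ beyond their spread. Cd8a (2.16 ± 2.24) and Cd3e (0.855 ± 1.33 CPM per kb) were lowest. In Chat-pos replicate 2 the levels were 186 CPM per kb for Gzma, 144 for Ccl5, 22.0 for Nkg7, 10.8 for Gzmb, 6.28 for Cd7, 5.77 for Cd3g, 2.30 for Cd8a and 1.54 for Cd3e. Gzma and Ccl5 led the order there as in Chat-neg.

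The make-up of the counts was compared among libraries. Gzma took 45.9% (95% exact Clopper-Pearson interval 40.6 to 51.2%) of the 8 genes' counts in Chat-neg replicate 2, 52.6% (48.3 to 56.9%) in replicate 3 and 64.6% (55.6 to 72.8%) in replicate 4. Its share was 46.7% (43.5 to 49.9%) in Chat-pos replicate 2, inside the interval of Chat-neg replicate 2 and below those of Chat-neg replicates 3 and 4. Ccl5 took 33.7% (28.8 to 38.9%) in Chat-neg replicate 2, 23.6% (20.1 to 27.4%) in replicate 3 and 17.3% in replicate 4, against 34.3% (31.3 to 37.4%) in Chat-pos replicate 2. Gzma and Ccl5 together made up 75.0 to 81.9% in these 4 libraries and Chat-neg replicate 1, and 71.4%, 65.6% and 74.1% in Chat-pos replicates 1, 3 and 4, so their combined share did not set the high libraries clearly apart. In the low Chat-pos libraries, with 21 to 32 counts, the shares of Gzma were 9.52%, 34.4% and 29.6%, with intervals from 1.17 to 53.2%.

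**Figure D2:**
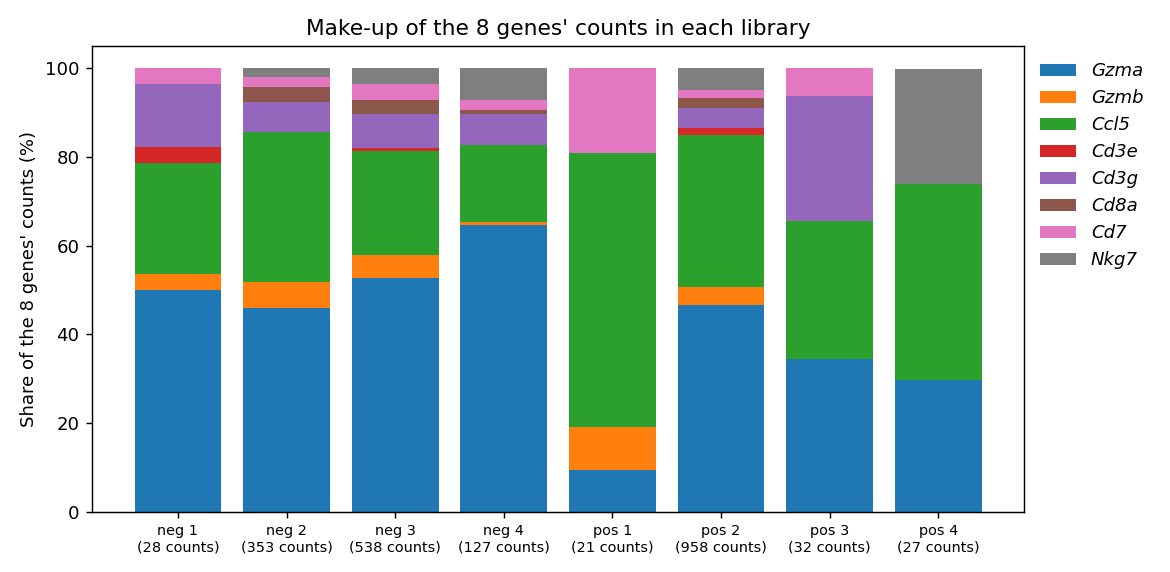
Share of each gene (vertical, percent, stacked) in the counts of the 8 genes for each library (horizontal), with the number of counts under each bar. Gzma and Ccl5 fill 75.0 to 81.9% of the bar in the 4 Chat-neg libraries and Chat-pos replicate 2, and 65.6 to 74.1% in Chat-pos replicates 1, 3 and 4, whose bars rest on 21 to 32 counts.

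The comparison of the groups asks whether the levels of these genes differ between tuft cells with and without Chat reporter signal. Over all 8 libraries 0 of the 6 members that passed the filter on low counts were called in either direction (edgeR's quasi-likelihood test, Benjamini-Hochberg adjusted p under 0.05 over 8919 genes), where 2.87% of all genes were called lower and 3.62% higher in Chat-pos. Of the 6, Cd7 alone had an unadjusted p under 0.05 (0.0152), and DESeq2 also called 0. Over all genes 323 were called higher and 256 lower, a split that turned to 225 and 380 with total count scaling, with 0 members called and the median of all genes at -0.14. Cd3e and Cd8a did not pass the filter. The log2 differences (Chat-pos minus Chat-neg) were -1.84 ± 1.44 for Gzma (SE, edgeR adjusted p = 0.556), -1.93 ± 1.42 for Gzmb (0.529), -1.23 ± 1.28 for Ccl5 (0.673), -2.21 ± 1.20 for Cd3g (0.374), -1.96 ± 0.75 for Cd7 (0.125) and -0.97 ± 1.32 for Nkg7 (0.75). The median of the 6 was -1.89, against -0.02 over all genes tested. The groups overlapped in CPM for all 8 members, and 7.02% of genes tested had all Chat-pos libraries below all Chat-neg libraries.

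Chat-pos replicate 2 is set apart here because of its level of these very genes, so the values without it describe the remaining libraries and are not an independent test. Without it, 6 of the 6 members that passed the filter were called lower (edgeR), where 2.09% of 8819 genes were called lower and 2.55% higher. The members passed the filter through the group in which they were high, so the count is no measure of all 8. Gzma had a log2 difference of -5.76 ± 0.36 (SE, edgeR adjusted p = 4.18e-12) and Ccl5 one of -4.05 ± 0.44 (4.86e-05). Gzmb stood at -5.34 ± 0.97 (0.00184), Cd3g at -4.23 ± 0.78 (0.00551), Nkg7 at -3.37 ± 0.86 (0.0198) and Cd7 at -3.29 ± 0.85 (0.021). For 5 of the 6 members that passed the filter, Gzma, Gzmb, Ccl5, Cd3g and Cd7, every remaining Chat-pos library lay below every Chat-neg library. So did 9.35% of the 8819 genes that passed it. For Cd3e and Cd8a, which did not pass, the libraries overlapped. For Gzmb the separation rests on 1 count in Chat-neg replicate 4 against 2 counts in Chat-pos replicate 1, and for Cd7 on 3 against 4 counts there. With no filter on low counts as well, 7 of the 8 were called lower, where 0.277% of 32081 genes were, and Cd3e was not (edgeR adjusted p = 0.383).

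**Figure D3:**
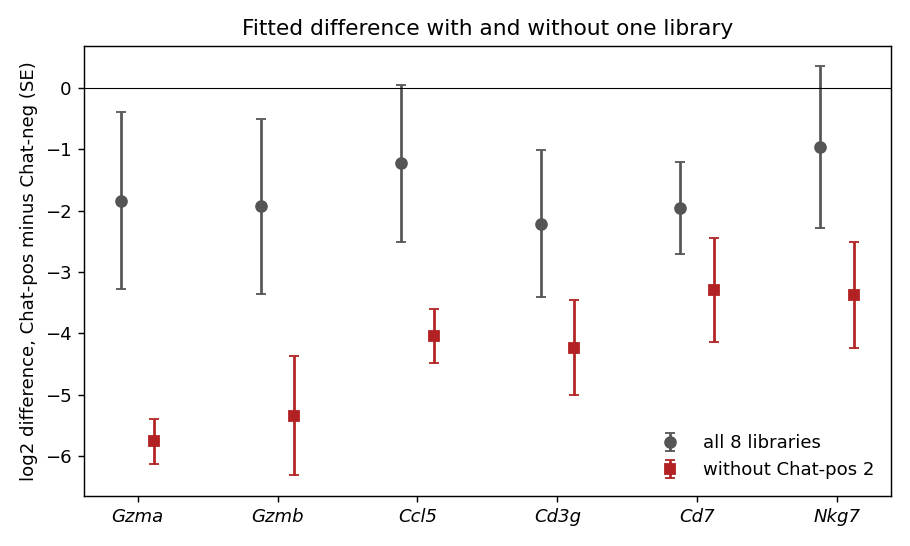
Fitted log2 difference, Chat-pos minus Chat-neg (vertical), of the 6 genes that passed the filter (horizontal), with standard errors as bars. Grey circles use all 8 libraries and run from -2.21 to -0.97, and red squares leave out Chat-pos replicate 2 and run from -5.76 to -3.29.

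Leaving out any other single library gave 0 members called. Without both Paneth-rich libraries, Chat-pos replicates 2 and 3, 5 members were called lower, namely Gzma, Gzmb, Ccl5, Cd3g and Cd8a (edgeR), where 0.952% of 9030 genes were, a choice made after seeing the data. Chat-pos replicate 3 had Paneth markers at 32600 CPM with 14.6 CPM of the 8 T cell genes, and Chat-neg replicate 3 had 776 CPM of Paneth markers with 457 CPM of them. High Paneth levels thus went with high T cell gene levels in Chat-pos replicate 2 and with low ones in replicate 3, and the part of Paneth-type material in these values was not tested. Goblet cell markers summed to 502 to 5440 CPM in Chat-neg, 1470 CPM in Chat-pos replicate 2 and 286 to 873 CPM in the low Chat-pos libraries.

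**Figure D4:**
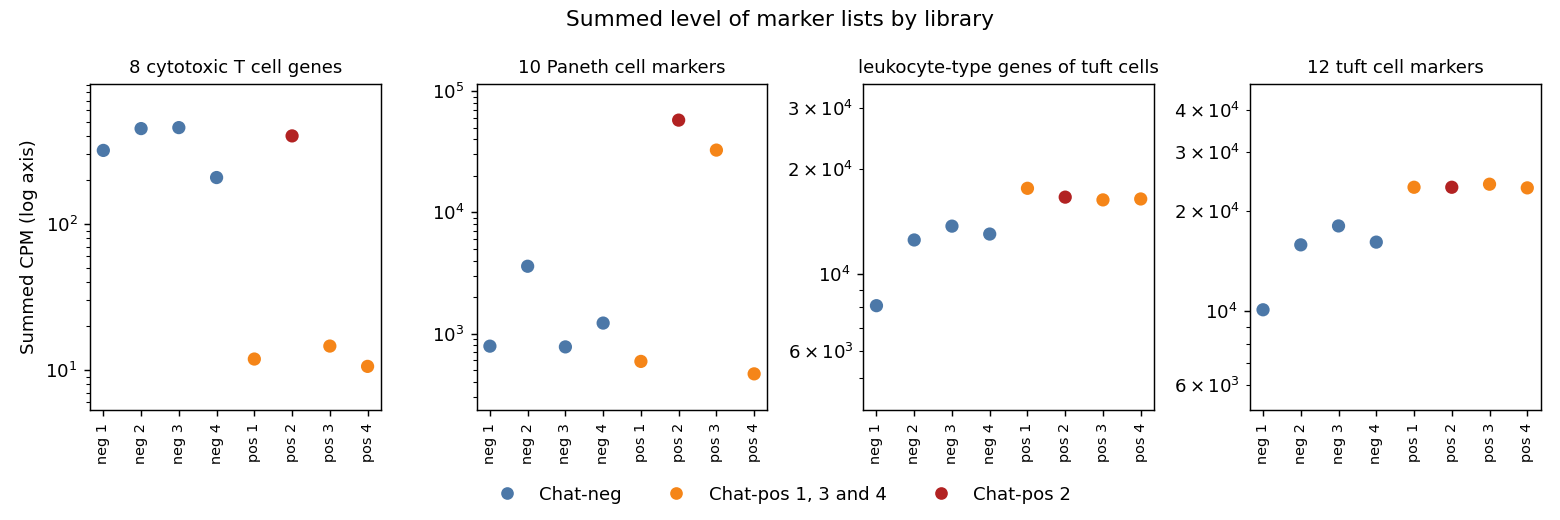
Summed CPM (vertical, log axis, a separate range in each panel) of the 8 T cell genes, 10 Paneth cell markers, 13 leukocyte-type genes of tuft cells and 12 tuft cell markers in each library (horizontal), with colours as in the plot of single genes. The T cell genes are at 10.6 to 14.6 CPM in Chat-pos replicates 1, 3 and 4 and at 401 CPM in replicate 2, Paneth markers are high in Chat-pos replicates 2 and 3, and the other 2 lists do not set Chat-pos replicate 2 apart.

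Leukocyte-type genes that tuft cells themselves express did not follow the T cell genes. Ptprc, which encodes CD45, ranged from 240 to 311 CPM over the Chat-neg libraries and from 459 to 596 CPM over the Chat-pos libraries, where replicate 2 was the lowest. It was higher in Chat-pos (log2 difference 0.99 ± 0.20, SE, edgeR adjusted p = 0.00313). The GTPase gene Rac2 and the lectin gene Siglecf of that list also rose, and none of its 13 genes fell (edgeR). The summed level of the list in Chat-pos replicate 2, 16600 CPM, lay within the 16300 to 17600 CPM of the other Chat-pos libraries.

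The other parts of the T cell receptor complex were sparse. Cd3d, the CD3 delta chain, had 0, 2, 17 and 4 counts in Chat-neg, 28 in Chat-pos replicate 2 and 0 in the other Chat-pos libraries. Over the 9 genes of receptor chains and CD3 beyond the members, the summed level was 11.4 to 43.3 CPM in Chat-neg, 37.3 CPM in Chat-pos replicate 2 and 0 to 1.14 CPM in Chat-pos replicates 1, 3 and 4. Constant-region genes of the alpha and beta chains (Trac, Trbc1, Trbc2) had 0, 9, 12 and 7 counts in Chat-neg replicates 1 to 4, and those of gamma and delta chains (Tcrg-C1, Tcrg-C2, Tcrg-C4, Trdc) had 1, 15, 22 and 2. In Chat-pos replicate 2 the counts were 22 and 39, so transcripts of both kinds of receptor were found there and in Chat-neg replicates 2 to 4. In Chat-pos replicates 1, 3 and 4 there were 2, 0 and 0 alpha or beta counts and no gamma or delta count. Trbc1 and Trbc2, and the Tcrg-C genes, have near-identical copies, so counts of single genes among them are uncertain.

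Of the coreceptors, Cd8b1, the beta chain of CD8, had 1 count in all 8 libraries together, against 50 for Cd8a, and Cd4 had 4, all in Chat-pos. Cd160, a receptor of intraepithelial lymphocytes, had 26 counts in Chat-pos replicate 2 and 0 to 8 in each other library. Cd2, an adhesion molecule of T cells, had 11 counts in Chat-pos replicate 1 and 15 in replicate 2, so it did not separate the low Chat-pos libraries from the rest.

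Among cytotoxic granule genes, Srgn, the proteoglycan serglycin that packs granzymes, stood at 11.4, 15.3, 8.50 and 3.27 CPM in Chat-neg, 11.3 CPM in Chat-pos replicate 2 and 0 to 1.71 CPM in the other Chat-pos libraries. It was not called over all libraries (log2 difference -1.21 ± 0.86, SE, edgeR adjusted p = 0.475). Without Chat-pos replicate 2 it was called lower (-2.91 ± 0.87, edgeR adjusted p = 0.048). Prf1, the pore-forming perforin, had 0 to 3 counts in each library, and Fasl, a death ligand, had 27 of its 31 counts in Chat-pos replicate 2.

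Of T cell signalling genes, Lck, a kinase of the T cell receptor, stood at 3.40 to 11.4 CPM in Chat-neg and 7.31 to 13.8 CPM in Chat-pos (0.84 ± 0.54, SE, edgeR adjusted p = 0.399), so it did not follow the 8 genes. Bcl11b, a T cell transcription factor, stood at 12.8 to 22.8 CPM in Chat-neg and 2.75 to 11.7 CPM in Chat-pos (-1.19 ± 0.50, adjusted p = 0.164). Among NK-type genes the adaptor Fcer1g stood at 22.8, 3.83, 27.2 and 18.0 CPM in Chat-neg and at 0, 6.28, 3.65 and 24.8 CPM in Chat-pos, and the groups overlapped. Klrd1, an NK receptor chain, had 0, 4, 11 and 2 counts in Chat-neg and 1 count over the 4 Chat-pos libraries. Of retention genes, Itgae, the integrin alpha chain CD103 that binds E-cadherin, stood at 4.91 to 11.4 CPM in Chat-neg, 5.03 CPM in Chat-pos replicate 2 and 0 to 0.787 CPM in the other Chat-pos libraries. Jaml, an adhesion molecule, was highest in Chat-neg replicate 4 at 65.5 CPM and did not pass (-1.16 ± 0.73, adjusted p = 0.428). Of the cytokine list Tnf, a cytokine that many cell types make, stood at 0.85 to 11.4 CPM in Chat-neg and 3.77 to 14.2 CPM in Chat-pos. The groups overlapped, and Tnf did not follow the 8 genes (0.92 ± 0.72, SE, edgeR adjusted p = 0.515). Il2rg, the shared gamma chain of several interleukin receptors, had 15 counts in Chat-pos replicate 2 and 0 to 4 in each other library, and the transcription factor genes had 0 to 7 counts each in a library.

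Of 81 such genes in 9 lists beyond the members, 7 passed the filter, and Cd52, a small surface glycoprotein of leukocytes, was the 1 called (edgeR, lower in Chat-pos). Of all genes tested, 2.87% were called lower. Cd52 stood at 22.8, 8.93, 11.0 and 13.1 CPM in Chat-neg and at 1.14, 4.19, 1.37 and 1.97 CPM in Chat-pos replicates 1 to 4 (-2.28 ± 0.62, SE, adjusted p = 0.0227). These levels rest on 2, 7, 13 and 8 counts in Chat-neg and 2, 10, 3 and 5 counts in Chat-pos. All 4 Chat-neg libraries lay above all 4 Chat-pos libraries, as they did for 7.02% of genes tested. The highest value, in Chat-neg replicate 1, is 2 counts and lies below the 34.2 CPM that a count of 0 allows there. Dropping any 1 of Chat-neg replicates 2, 3 and 4 and Chat-pos replicates 1, 3 and 4 ended the call, with edgeR adjusted p from 0.0618 to 0.0986. It also ended with no filter on low counts (0.112), where Klrd1 was called in its place, and without both Paneth-rich libraries (0.11). Without Chat-pos replicate 2, Cd52 and Srgn were the 2 called of 6 tested, where 2.09% of all genes were called lower. With no filter as well, the 3 called of 75 tested were Cd3d, Klrd1 and Tcrg-C4, where 0.277% of all genes were. Chat-pos replicate 2 was set apart for its level of the 8 genes, so these calls are no independent result.

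Markers of other blood-derived cells were at low levels. B and plasma cell markers summed to 3.27 to 114 CPM in Chat-neg, 13.8 CPM in Chat-pos replicate 2 and 2.74 to 9.10 CPM in the other Chat-pos libraries. The 114 CPM rest on 10 counts in Chat-neg replicate 1, of which Pax5, a B cell transcription factor, had 7. Igkc, an antibody light chain constant gene, had 22 counts (9.21 CPM) in Chat-pos replicate 2 and 13 (16.6 CPM) in Chat-neg replicate 2. Cd79b, a chain of the B cell receptor, had 8 counts in each of these libraries, or 3.35 and 10.2 CPM. Cd79a had 1 count in all 8 libraries together. Macrophage and dendritic cell markers summed to 14.7 to 79.9 CPM in Chat-neg, 14.2 CPM in Chat-pos replicate 2 and 11.4, 25.6 and 76.3 CPM in Chat-pos replicates 1, 3 and 4. In Chat-pos replicate 4 the complement gene C1qb had 66 counts and the lysozyme gene Lyz2 had 42, and Cx3cr1 had 0 in every library. Type 2 innate lymphoid cell markers summed to 11.0 to 57.1 CPM in Chat-neg, 29.3 CPM in Chat-pos replicate 2 and 3.65 to 7.97 CPM in the other Chat-pos libraries. Of them Il13 and Klrg1 had no count in any library, and Areg, an epidermal growth factor family ligand that other cells make too, stood at 28.1 CPM in Chat-pos replicate 2. The granulocyte genes S100a8, S100a9 and Epx had no count in any library. The full list of 22 intraepithelial T cell markers, which holds the 8 members, summed to 241 to 530 CPM in Chat-neg, to 13.7, 15.1 and 13.0 CPM in Chat-pos replicates 1, 3 and 4 and to 456 CPM in Chat-pos replicate 2. Of these markers Cd8b1 was at 0 in 7 of the 8 libraries.

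The 10 genes most alike in pattern were found by Pearson's r between log2(CPM + 1) of each of 10526 other genes and the mean of the 8 members over 8 libraries. They were Pbx2 (r = 0.961), Pard3b, Rars2, Ccdc61, Dclre1b, Mcu, Gimap4 (0.901), Srgn (0.897), Pus1 and Otulin (0.893). The ranking is a description of 8 libraries that differ in depth, and several of these values rest on 1 or 2 counts in Chat-neg replicate 1. Gimap4, a GTPase of lymphocytes, stood at 11.4, 3.83, 8.50 and 3.27 CPM in Chat-neg, 11.7 CPM in Chat-pos replicate 2 and 0 to 1.37 CPM in the other Chat-pos libraries. Rars2, a mitochondrial arginyl-tRNA synthetase, differed far less, at 42.6 to 45.9 CPM in Chat-neg and 21.5 to 39.0 CPM in Chat-pos.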

How the data were processed

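RNA of sorted small-intestinal tuft cells was amplified as cDNA with SMARTer v4 reagents and sequenced as Nextera XT libraries with single reads, per the labels' protocols. The authors deposited 1 table of raw, whole-number counts by gene symbol. The submitters' processing notes name GRCm38 as the build. For the aligner, counting tool and annotation: not given in the sources used here. Strand is not marked by this chemistry.

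The 36 rows without a symbol, 58.6 to 88.4% of all counts in a library, entered neither library sizes nor tests. Rows sharing a symbol (229 rows, 114 symbols) were summed, leaving 53655 symbols. CPM were computed from the deposited counts as counts per 1000000 over named rows, not scaled further. The test was edgeR 4.0.16 in R 4.3.3 on counts (TMM, filterByExpr, robust quasi-likelihood fit, no term besides group), with Benjamini-Hochberg adjustment over all genes tested and a threshold of 0.05. Standard errors are the log2 difference divided by the square root of F. Alternatives were RLE and total count scaling, no filter, DESeq2 1.42.0, a replicate block, and leaving out each library. 3 more were added after seeing the data, named in the closing section, among them library sizes from all named rows, with which the fit was first run. Exact intervals used scipy 1.17.1. Positions and exon lengths are from GENCODE M21, with the exons of all transcripts of a gene merged for its length. The fit was tested on simulated data.

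The genes and lists were chosen with earlier results of these data known. The rule for naming genes took the members, genes of the gates, in each list the called genes and the 3 most abundant, and the 10 most alike, and not all of these are printed. Others (Cd8b1, Cd4, Fasl, Klrd1, Cd79a, Cx3cr1, Il13, Klrg1, S100a8, S100a9, Epx, receptor constant genes) were picked after their values were seen. Lists not described in the text summed as follows over all libraries: pan-leukocyte 1.71 to 103 CPM, helper and regulatory T cell 16.9 to 57.1 CPM, mast cell and granulocyte 0 to 11.4 CPM, red blood cell 0 to 2.55 CPM, stromal and endothelial 5.02 to 34.2 CPM, enterocyte 21200 to 51600 CPM, enteroendocrine 571 to 1760 CPM, and stem and proliferating cell 120 to 1120 CPM.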

Additional observations from a re-analysis of the deposited data

Results flagged for a closer look

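A library was flagged where its gap to the nearest other library of its group took most of the group's range (Dixon's 95% critical value for 4 libraries). Of 48 groups of values tested 14 were flagged, and the values are not independent of each other. Chat-pos replicate 2 took 9 of the flags and was set apart because of its level of the 8 genes, so these flags are no independent result. For Cd3e and Cd8a the other Chat-pos libraries all had 0 counts, so any count in replicate 2 would be flagged.

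Chat-pos replicate 2 stood above its group for Gzma (187 CPM), Ccl5 (138 CPM), Nkg7 (20.1 CPM), Gzmb (15.5 CPM), Cd8a (8.38 CPM) and Cd3e (6.28 CPM), and for the sum of the 8 genes (401 CPM). It also stood above the other Chat-pos libraries for the summed T cell receptor chains and CD3 (37.3 CPM) and T cell signalling genes (41.5 CPM). The highest Chat-neg values of these lists were 43.3 and 114 CPM.

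Chat-neg replicate 1 stood above its group for the summed T cell signalling genes (114 CPM, from 10 counts), lymphocyte cytokines and IL-15 receptor chains (34.2 CPM, 3 counts), pan-leukocyte genes (103 CPM, 9 counts) and macrophage and dendritic cell markers (79.9 CPM, 7 counts). Chat-neg replicate 2 stood above its group for Paneth cell markers (3590 CPM).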

How the results depend on the processing

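All 96 log2 differences of the 6 tested members under the alternatives were below 0, and 16 passed the threshold, each with Chat-pos replicate 2 left out. Leaving out 1 library in turn gave ranges of -5.76 to -1.43 for Gzma, -5.34 to -1.49 for Gzmb, -4.05 to -0.82 for Ccl5, -4.23 to -1.77 for Cd3g, -3.29 to -1.49 for Cd7 and -3.37 to -0.54 for Nkg7, with 0 to 6 members and 0 to 2 genes of the 9 other lists called lower. Over all genes those fits gave 138 to 360 higher and 110 to 309 lower.

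Without both Paneth-rich libraries, 5 members, 0 genes of the other lists and 86 of all genes were called lower, with Gzma at -6.10, Gzmb at -4.70, Ccl5 at -3.80 and Cd3g at -7.96. Cd3g had 0 counts in Chat-pos replicates 1 and 4, the Chat-pos libraries left there, so the size of its difference is not well set. With no filter on low counts and Chat-pos replicate 2 left out, 7 members, 3 genes of the other lists and 89 of all genes were lower and 201 higher, with Gzma at -5.55, Gzmb at -5.16, Ccl5 at -3.84, Cd3g at -4.04, Cd7 at -3.10 and Nkg7 at -3.18. Both were chosen after seeing the data, as was a fit with library sizes from all named rows, which gave 359 higher and 238 lower genes and 0 members. No filter alone gave 143 lower genes and 0 members. Total count scaling moved the split over all genes from 323 higher and 256 lower to 225 and 380, with 0 members called. With unnamed rows kept in the total, the mean summed level in Chat-neg was 89.5 CPM in place of 359 and in Chat-pos 39.1 in place of 110, and the ratio of Chat-neg to Chat-pos without replicate 2 was 18.9 in place of 28.9. The cause of these shifts was not tested, beyond the larger total in the last.

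With the replicate number as a block, 290 genes were higher and 230 lower and 0 members were called. Same-numbered libraries deviated together with correlations of 0.0539, 0.0333, -0.0213 and -0.01, and not every library matched its own number best, so the numbers were not taken as pairs. Depth limits Cd3e, with 4 counts over the Chat-neg libraries.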
